A study of Mus musculus with 4 samples.

Results

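The receptors described here are the 236 olfactory receptor genes whose symbols run from *Olfr987* to *Olfr1318*, all of them on mouse chromosome 2. They were chosen by symbol alone: a non-control probe entered when the accession that the array gives for it matched a gene in this number range. The 236 receptors were measured by 246 probes, and were compared with the 843 other *Olfr* genes and with all 45604 genes of the array. The RefSeq gene table lists 320 genes in this number range, of which 84 had no probe by this rule. The table calls 2 of the 236 pseudogenes.

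Gene expression was measured in the septal nasal mucosa, labelled olfactory epithelium, of male C57BL/6 mice (strain label C57BL/6J) that had received no treatment named in the sources used. Young adult mice were 8 weeks old and aged mice were 16 months old. Each age had 2 arrays, and each array received Cy3-labelled RNA pooled from 5 mice. The number of mice that the methods give for gene analyses is smaller than what pools of different mice would require, so the pools of an age may share mice, and the p-values below measure only the spread between pools.

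An odorant receptor is a G protein-coupled receptor on the cilia of the olfactory receptor neuron (ORN). A mature ORN transcribes a single receptor gene, from a single allele, and keeps the rest of this very large family silent. The signal of one receptor in whole mucosa therefore comes from the small set of neurons that chose it, and in pooled tissue fewer such neurons and less receptor RNA per neuron cannot be told apart. Receptor genes sit in clusters, in which neighbours are often recent duplicates of each other with nearly the same coding sequence.

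The similarity of neighbours is shown here by the first 50 coding bases of 3 sets of receptors to which the values below return. The RefSeq promoter table (build GRCm38.p6) held windows for 196 of the 236 receptors. In 143 of 198 windows (72.2%) the annotated start was an ATG, so that the last 50 bases of the window were coding sequence. Only *Olfr* genes whose annotated start was an ATG were compared with each other, so that closer genes may have been missed. Among these, the median receptor differed from its closest other *Olfr* gene at 9 of the 50 bases. Of the 143, 48 had another such receptor within 5 bases. In the lines below, capitals mark the bases that differ from the first partner named.
*Olfr1201* and *Olfr1206* (chr2:88794384-88794433 and chr2:88864607-88864656, plus strand) differed at 3 bases, and both were called higher in aged mice:
Olfr1201: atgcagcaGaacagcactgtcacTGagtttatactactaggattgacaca
Olfr1206: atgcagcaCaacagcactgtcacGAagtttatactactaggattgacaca
*Olfr1261*, *Olfr1262* and *Olfr1263* (chr2:89993395-89993444, chr2:90002408-90002457 and chr2:90014932-90014981, plus strand) are shown because only the first was called. *Olfr1261* is marked against *Olfr1262*, and the other two against *Olfr1261*:
Olfr1261: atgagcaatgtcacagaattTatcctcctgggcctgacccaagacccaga
Olfr1262: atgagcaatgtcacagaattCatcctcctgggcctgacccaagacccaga
Olfr1263: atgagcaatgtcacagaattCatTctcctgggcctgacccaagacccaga
*Olfr1294*, *Olfr1297* and *Olfr1298* (chr2:111538238-111538287, chr2:111622023-111622072 and chr2:111645946-111645995, minus strand) are shown for the same reason. *Olfr1294* is marked against *Olfr1297*, and the other two against *Olfr1294*:
Olfr1294: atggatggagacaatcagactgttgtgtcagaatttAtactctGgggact
Olfr1297: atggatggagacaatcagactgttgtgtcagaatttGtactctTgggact
Olfr1298: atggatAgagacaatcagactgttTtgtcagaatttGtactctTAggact

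The receptors were dim genes on these arrays. A level below is a normalised signal: the spot brightness after background correction and quantile normalization, with no unit. The median level was 59.3 over the 236 receptors, 71.6 over the other *Olfr* genes and 145 over all genes, although brightness depends on each probe as well as on its RNA. Of the 236, 81 were well above background on all 4 arrays, 90 on 1 to 3 arrays and 65 on no array. On the young adult arrays 99 and 148 receptors were above background, and 94 and 156 were so in aged mice. The lower number in each age came from the array numbered 1, and these arrays shared a slide and had the higher median local background (67 and 63, against 32 and 39). The groups therefore each held 1 array of high and 1 of low background.

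More of these receptors were higher than lower in aged mice. A gene was called at a P below 0.05 and a false discovery rate (FDR) below 0.25 in limma's moderated test, adjusted over all 45604 genes. Of the 236 receptors, 33 (14%) were called higher in aged mice and 4 (1.69%) were called lower, where 1.65% of all genes were called higher and 2.33% were called lower. Among the other *Olfr* genes 85 (10.1%) were called higher and 36 (4.27%) lower. The median log2 fold change (aged minus young adult) was 0.22 over the 236 receptors, 0.08 over the other *Olfr* genes and 0.01 over all genes. Without aged array 2 these medians were 0.10 for the receptors and 0.00072 for the other *Olfr* genes, and the latter was 0.12 without young adult array 2 and 0.12 without aged array 1. Both aged arrays lay above both young adult arrays for 102 receptors (43.2%) and below them for 32 (13.6%), where 24.2% and 21.8% of all genes did so. The difference between the receptors and the other *Olfr* genes was not tested, and a two-sided exact permutation test of any single value over 2 arrays and 2 arrays reaches no P below 0.333. The calls rest on few arrays: with the replicate number as a block, limma called 0 receptors and 0 of all genes in either direction. At an unadjusted P below 0.05, 58 receptors were then higher and 9 lower, compared with 62 and 9 in the fit without the block. In the fit without the block, 2760 of all 45604 genes were higher and 3230 lower at that P. With any single array left out, 1 age keeps 1 array, and the median log2 fold change of the receptors was 0.10 to 0.30.

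**Figure D1:**
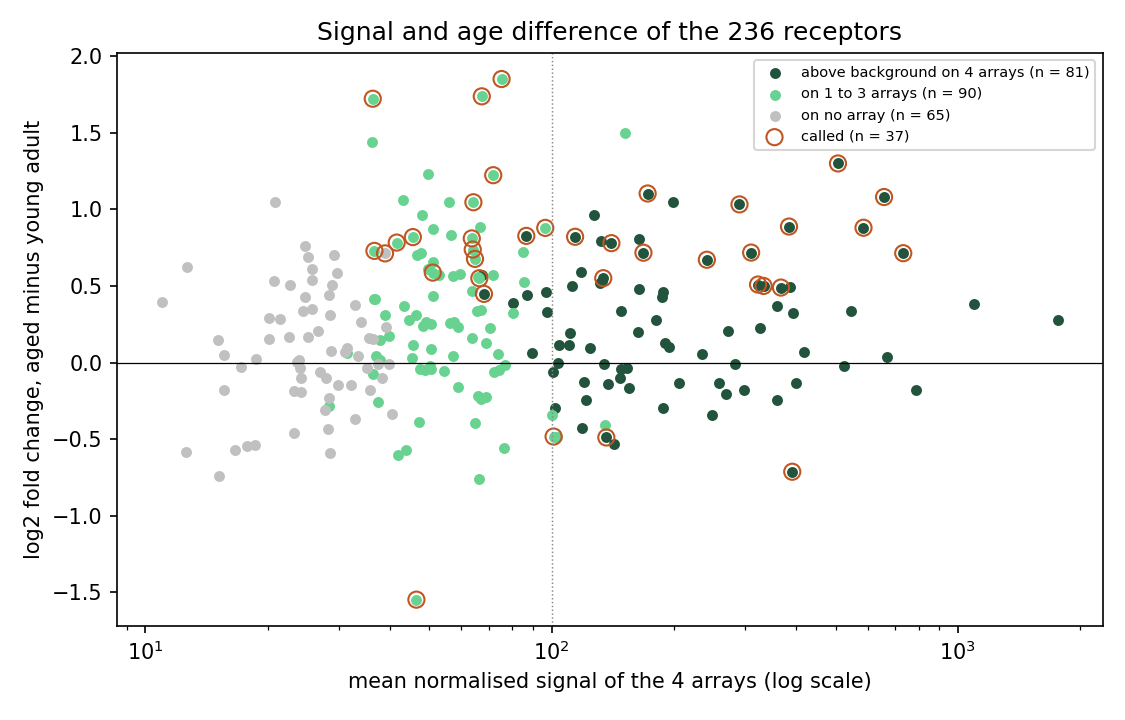
Each point is 1 of the 236 receptors, with the mean normalised signal of the 4 arrays on a log scale across and the log2 fold change (aged minus young adult) upward; shades give the number of arrays on which it was well above background, rings mark called genes and the dotted line the level of 100. The 65 receptors above background on no array sit at the left and hold 1 called gene, whereas the 81 above background on all arrays hold 20.

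The share of receptors called differed with their signal. Of the 81 receptors above background on every array, 18 (22.2%) were called higher and 2 (2.47%) lower, against 70 (20.4%) and 18 (5.25%) of the 343 other *Olfr* genes of that kind and 2.11% and 3.07% of all genes of that kind. Of the 65 above background on no array, 1 (1.54%) was called higher and 0 lower (limma), with 5 higher and 2 lower at an unadjusted P below 0.05. Of all 10924 genes of that kind, 0.705% were called higher and 0.778% lower. At that P, 407 of them were higher and 422 lower. Among genes with a mean level of at least 100, 20.5% of these receptors, 20.4% of the other *Olfr* genes and 2.13% of all genes were called higher. Below that level the shares were 10.8%, 3.66% and 1.05%. The difference between these shares was not tested.

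Genes that were called, had a mean level of at least 100 and changed at least 1.5-fold were counted as differentially expressed genes (DEGs). There were 12 receptors among the upregulated DEGs (5.08%, where 0.814% of all genes were) and 1 among the downregulated DEGs (0.424%, where 1.15% of all genes were). Of the other *Olfr* genes, 61 (7.24%) were upregulated DEGs, a larger share than in these receptors, and 19 (2.25%) were downregulated DEGs. The difference between these shares was not tested. Of the 33 receptors called higher, 17 were below the level of 100 and 4 others changed by less than 1.5-fold. All of these genes encode odorant receptors, and no ligand is given here for any of them.

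The largest rise among the DEGs was that of *Olfr1290*. Its level was 274 and 312 in young adult mice and 692 and 749 in aged mice. The aged arrays lay far above the others, and the log2 fold change was 1.30 with a standard error of 0.11 (FDR = 0.178 by limma). *Olfr1295* stood at 107 and 112 in young adult mice and at 225 and 245 in aged mice, and its log2 fold change was 1.104 with a standard error of 0.091 (FDR = 0.178 by limma). *Olfr1301*, the brightest of the 10 DEGs with the largest rises, stood at 409 and 436 in young adult mice and at 905 and 882 in aged mice, and its log2 fold change was 1.08 with a standard error of 0.083 (FDR = 0.178 by limma). In each of these receptors the gap between ages was many times the gap between pools of one age.

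*Olfr1261* was at 185 and 196 in young adult mice and at 393 and 386 in aged mice (log2 fold change 1.03). *Olfr1299* was at 268 and 270, and at 516 and 481 in aged mice (0.89). *Olfr1294* was at 386 and 440, and at 749 and 768 in aged mice (0.88). None of the 3 had overlapping ages, and their FDR was 0.178, 0.178 and 0.193 by limma.

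The smaller rises were those of *Olfr1013*, *Olfr1248*, *Olfr1247* and *Olfr1307*, with log2 fold changes of 0.82, 0.78, 0.72 and 0.72 and FDRs between 0.206 and 0.238 by limma. *Olfr1013*, the dimmest DEG, was at 90.4 and 75.03 in young adult mice and at 137 and 154 in aged mice. Among these 10 receptors *Olfr1013* alone lies below *Olfr1201*. The other 2 upregulated DEGs were *Olfr1110* and *Olfr1112*, with log2 fold changes of 0.71 and 0.67.

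The single downregulated DEG was *Olfr1106*. It was at 489 and 482 in young adult mice and at 277 and 317 in aged mice, and fell by 0.71 on the log2 scale (standard error 0.11, FDR = 0.211 by limma). The ages did not overlap. Among receptors with nearby numbers, *Olfr1107* and *Olfr1110* were called in the opposite direction (log2 fold changes 0.59 and 0.71).

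**Figure D2:**
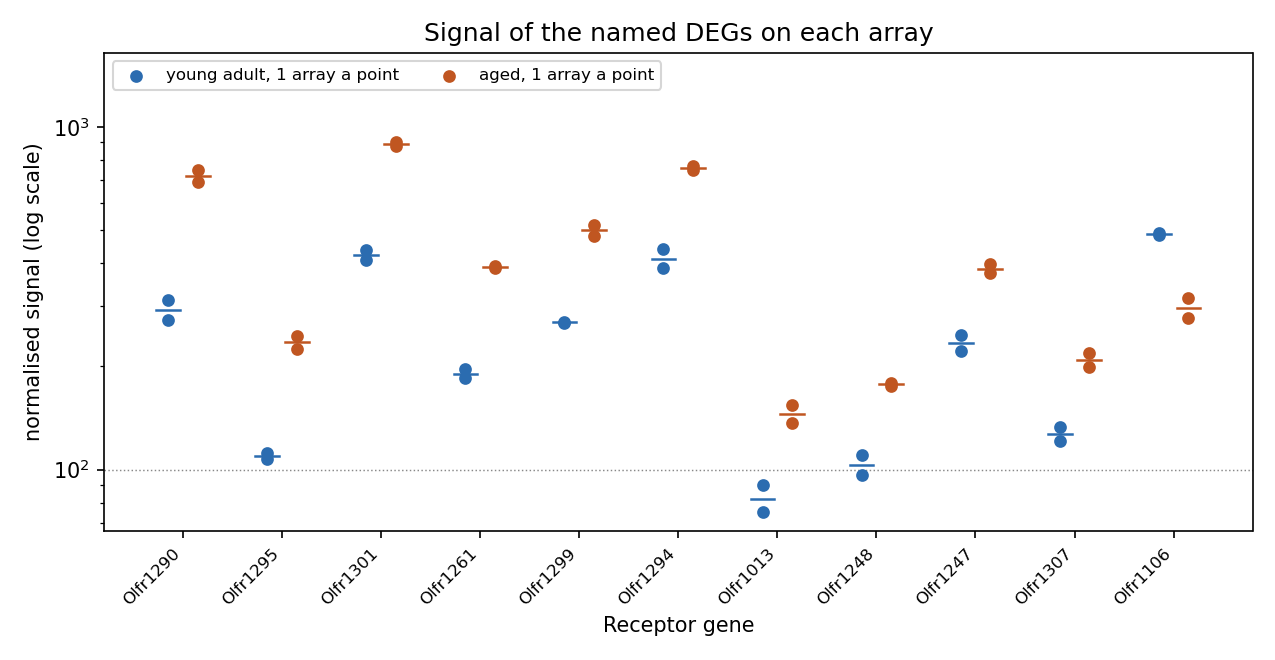
Normalised signal on a log scale of the 10 DEGs with the largest rises and of the single downregulated DEG (*Olfr1106*, right); each point is 1 array (n = 2 pools per age) and each bar the geometric mean of an age. The aged points lie above the young adult points in the first 10 genes and below them in *Olfr1106*; the dotted line marks the level of 100.

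The largest fold changes belonged to receptors with little signal in one age, so that a reduced estimate, called a lower limit here, is given. Such a limit sets the brighter age against the higher of the dim probe's own signal and the lowest signal among probes well above background on each array. This limit leaves out the spread between arrays and holds for the main processing alone. Over the processing alternatives the log2 fold change was as small as 1.02 for *Olfr1205*, 0.91 for *Olfr1201* and 0.69 for *Olfr1206*. For *Olfr1241* and *Olfr1058* it was as small as 0.66 and -0.69. *Olfr1205* was at 33.7 and 31.2 in young adult mice, not well above background on either array, and at 135 and 101 in aged mice. Its limit was a 3.44-fold rise (FDR = 0.184 by limma). *Olfr1201* was at 25.5 and 37.1, also not above background, and at 115 and 91.5 in aged mice, with a limit of 2.77-fold (FDR = 0.210 by limma). *Olfr1206*, with a coding start close to that of *Olfr1201*, was at 48.4 and 38.1 and at 95.4 and 105 in aged mice. It was above background on 1 of the aged arrays and on no young adult array (FDR = 0.203 by limma). Its young adult signal still exceeded, on both arrays, the lowest signal among probes well above background. Its limit of 2.33-fold therefore equals the fitted fold change and bounds nothing further. These 3 genes lie near each other in the cluster, and the first 50 coding bases of *Olfr1201* and *Olfr1206* differ at 3 positions as printed above.

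*Olfr1241* was at 14.4 and 19.0 in young adult mice and at 68.1 and 43.7 in aged mice. It was above background on 1 aged array only (limit 1.89-fold, FDR = 0.236 by limma). *Olfr1284* was at 31.3 and 25.9 in young adult mice and at 93.4 and 48.0 in aged mice, with 1 aged array above background, and was not called (FDR = 0.364 by limma). In the opposite direction, *Olfr1058* was at 81.5 and 57.5 in young adult mice and at 23.4 on both aged arrays, where it was not above background. Its limit was a 2.40-fold fall in aged mice (FDR = 0.204 by limma).

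The count of receptors seen in only one age also leaned towards aged mice. There were 22 receptors above background on an aged array and on no young adult array, and 12 the other way round. For the other *Olfr* genes these numbers were 21 and 72, and for all genes 614 and 2550. The 65 receptors above background nowhere have no firm level in either age.

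Of the 5 brightest receptors, 1 passed the test. *Olfr1031*, the brightest, was at 1585 and 1594 in young adult mice and at 1959 and 1904 in aged mice (log2 fold change 0.28, FDR = 0.316 by limma). *Olfr1229* was at 876 and 1027 and at 1208 and 1265 in aged mice (0.38, FDR = 0.355). *Olfr1032* was at 818 and 860 and at 728 and 756 in aged mice (-0.18, FDR = 0.489). In these 3 receptors the ages did not overlap, but none passed the test. *Olfr1252* was at 585 and 737 in young adult mice and at 628 and 723 in aged mice, so that the ages overlapped (0.04, FDR = 0.940). The remaining receptor, *Olfr1110*, was at 574 and 536 and at 977 and 848 in aged mice, and was called (0.71, FDR = 0.221 by limma).

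The differences were not spread evenly over the number range, which broadly follows the order of the genes along the chromosome. Over all genes, 51.5% had a log2 fold change above 0 and 1.65% were called higher, and the counts below are read against these shares. In the 4 blocks from *Olfr987* to *Olfr1040*, *Olfr1041* to *Olfr1100*, *Olfr1101* to *Olfr1150* and *Olfr1151* to *Olfr1200*, the median log2 fold changes were 0.07, -0.01, 0.09 and 0.11. From *Olfr1201* to *Olfr1250* the median was 0.57, with 37 of 41 receptors (90.2%) higher in aged mice and 13 (31.7%) called. From *Olfr1251* to *Olfr1318* it was 0.35, with 40 of 54 (74.1%) higher and 9 (16.7%) called. The receptors from *Olfr1201* upward thus held 22 of the 33 calls towards aged mice, and 0 of 95 were called lower (limma), or lower at an unadjusted P below 0.05. The 141 receptors below *Olfr1201* held 11 calls higher (7.8%) and 4 lower (2.84%), and 2 of their 4 blocks, *Olfr987* to *Olfr1040* and *Olfr1151* to *Olfr1200*, also had 0 called lower. The blocks were joined into a lower and an upper range at *Olfr1201* with their values known. Counts for these ranges, here and below, therefore describe the split and do not test it.

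**Figure D3:**
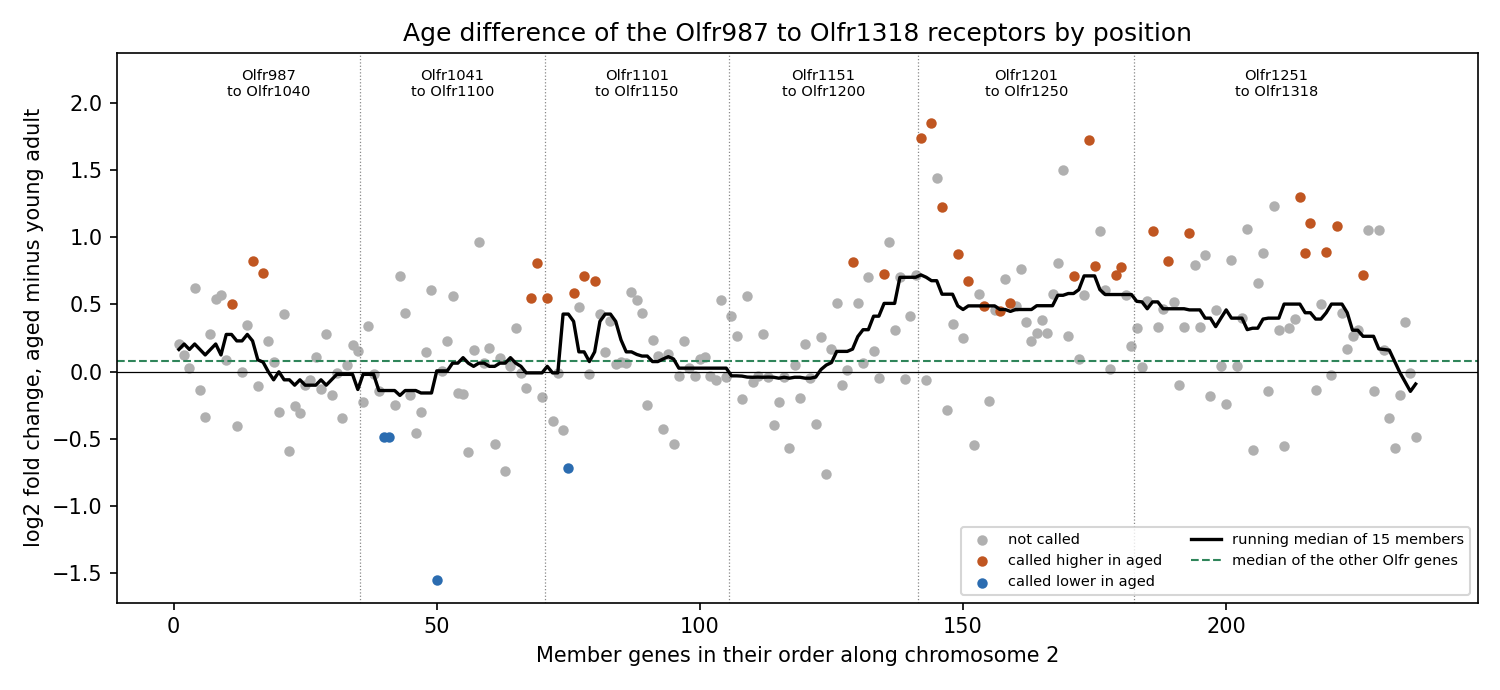
Log2 fold change (aged minus young adult) of the 236 receptors in their order along chromosome 2; dotted vertical lines part the 6 blocks, the black line is the running median of 15 receptors and the dashed line the median of the other *Olfr* genes (0.08). The running median moves around the dashed line over the first 3 blocks, climbs within the fourth block, ahead of *Olfr1201*, and lies above the dashed line through the fifth block and most of the sixth.

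In the upper range 58 of 95 receptors (61.1%) had both aged arrays above both young adult arrays and 5 (5.26%) had both below. The corresponding shares below *Olfr1201* were 31.2% and 19.1%, closer to those of all genes (24.2% and 21.8%). Of the 30 receptors from *Olfr1201* upward that were above background on all 4 arrays, 29 were higher in aged mice (median 0.51), all but *Olfr1297*, and 25 had no overlap between ages. Of the 51 such receptors below *Olfr1201*, 26 were higher (median 0.05). Among all genes above background on all 4 arrays, 54% were higher, 31.6% had both aged arrays above both young adult arrays and 25.6% had both below. For the other *Olfr* genes of that kind these shares were 62.4%, 49.6% and 22.2%.

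**Figure D4:**
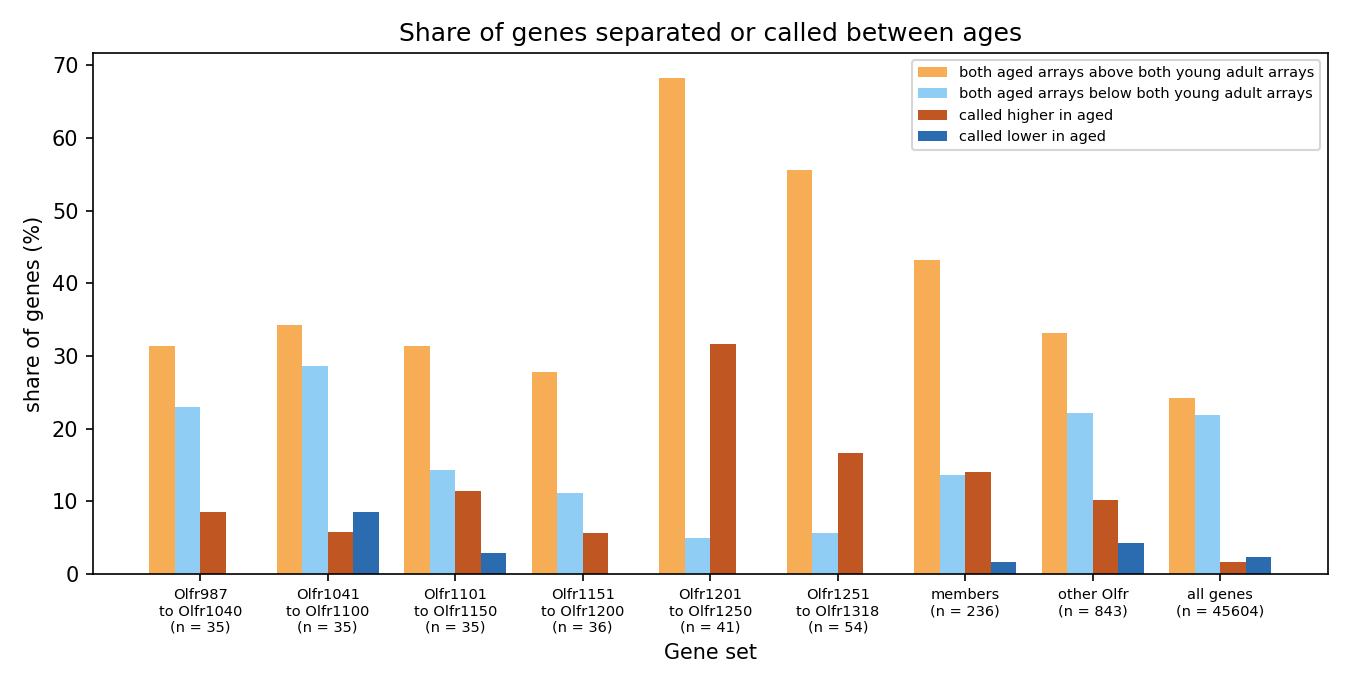
Share of genes (%) in each block of the number range, in all 236 receptors, in the other *Olfr* genes and in all genes, with n under each set; pale bars give genes whose arrays do not overlap between ages, dark bars give called genes. The blocks from *Olfr1201* to *Olfr1250* and *Olfr1251* to *Olfr1318* have the tallest orange bars (68.3% and 55.6%).

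The same differences can be given for each pair of arrays of one number, whose mean they are. On the slide that held 1 array of each age, the median log2 fold change was 0.48 from *Olfr1201* upward and -0.05 below. Between the arrays numbered 2, which lay on separate slides, the medians were 0.40 and 0.17. The longest run of neighbouring receptors that were all higher in aged mice had 35 members, from *Olfr1218* to *Olfr1258*. This run was picked out after the values had been seen.

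The upper range crosses a gap in the chromosome. In the promoter table, *Olfr1272* and *Olfr1275* are 20.9 Mb apart, whereas no other gap between neighbouring windows exceeds 0.183 Mb, so that the receptors form 2 clusters. Of the 59 receptors from *Olfr1201* to *Olfr1272*, before the gap, 52 were higher in aged mice and 16 (27.1%) were called (median 0.49). Of the 36 receptors from *Olfr1275* to *Olfr1318*, after the gap, 25 were higher and 6 (16.7%) were called (median 0.35). Of all 200 receptors before the gap, 132 were higher and 27 (13.5%) were called higher (median 0.18). Receptors higher in aged mice were thus found on both sides of the gap.

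Neighbours with alike coding starts were not always called together. These partners were chosen from their coding starts after the values of the DEGs were known. *Olfr1261* was called, while *Olfr1262*, which differs from it at 1 of the 50 bases, was at 109 and 85.2 in young adult mice and at 155 and 180 in aged mice (log2 fold change 0.79, FDR = 0.278 by limma). *Olfr1263*, at 2 differences, was at 123 and 140 and at 161 and 168 in aged mice (0.33, FDR = 0.364). All 3 had both aged arrays above both young adult arrays.

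In the other set, *Olfr1294* was called, while *Olfr1297* was at 270 and 165 in young adult mice and at 179 and 208 in aged mice (log2 fold change -0.13, FDR = 0.875 by limma). *Olfr1298* was at 94.7 and 89.6 and at 108 and 157 in aged mice (0.50, FDR = 0.470). Only *Olfr1297* had overlapping ages, and the differences between members of a set were not tested. Probe sequences were not used here, so that how far a probe reads its neighbours' RNA is unknown. Of the 19 receptors called higher with a coding start in the table, 9 had another receptor with such a start within 5 of the 50 bases.

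**Figure D5:**
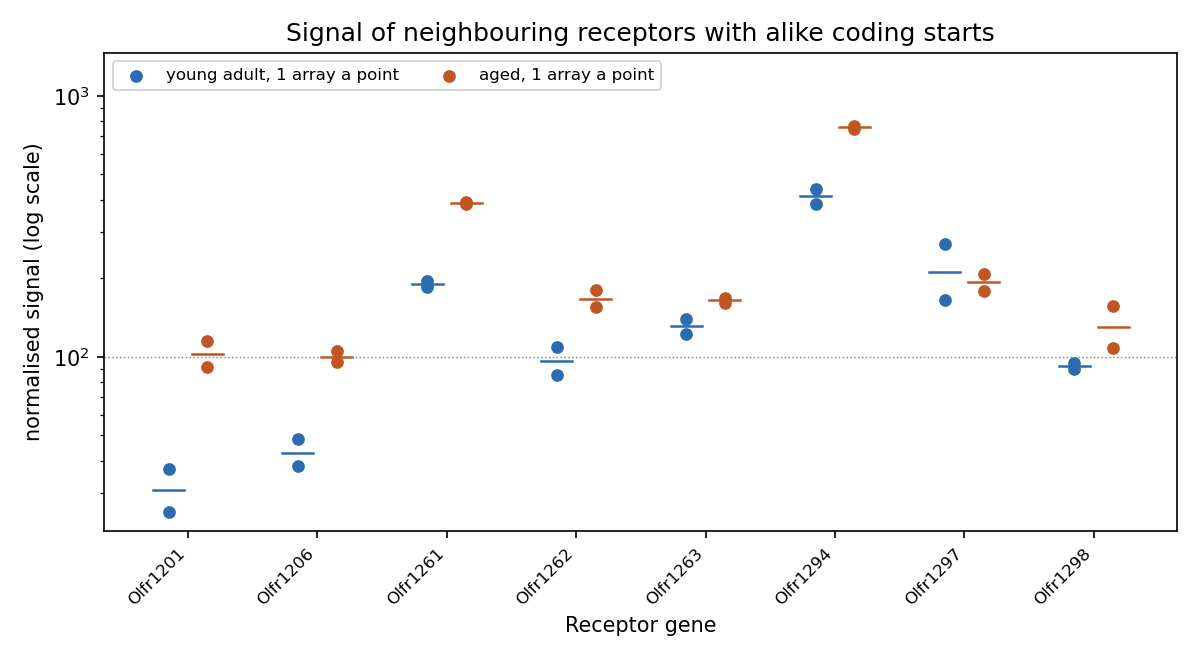
Normalised signal on a log scale of the 3 sets of receptors whose first 50 coding bases are printed; each point is 1 array (n = 2 pools per age) and each bar the geometric mean of an age. *Olfr1201* and *Olfr1206* rise from below 50 to about 100, *Olfr1261* and *Olfr1294* lie clear of their young adult points, and the points of *Olfr1297* overlap.

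For 10 receptors there were 2 probes, and in 5 of these the probes had opposite signs. *Olfr1097* was the 1 case in which a probe moved by at least 1 on the log2 scale. Its bright probe was at 558 and 591 in young adult mice and at 524 and 574 in aged mice (-0.07). Its dim probe, above background on no array, was at 21.4 and 19.7 and at 54.2 and 39.4 in aged mice (1.17). The gene was called from the mean of both (log2 fold change 0.55, FDR = 0.240 by limma), and the direction turned with the bright probe alone.

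At the edges of the range nothing was called. *Olfr987* was at 262 and 243 in young adult mice and at 271 and 313 in aged mice (log2 fold change 0.21, FDR = 0.553 by limma). *Olfr1318* was at 270 and 25.3 on the young adult arrays, so far apart that no age difference could be measured against the 54.2 and 64.0 of aged mice. Just outside, *Olfr986* on chromosome 9 (0.11, FDR = 0.936) was near background and *Olfr1320* on the X chromosome stood at 72.5 and 59.9 and at 31.0 and 41.6 in aged mice (-0.88, FDR = 0.291).

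Receptor genes are bound in ORNs by LHX2, a homeodomain protein that works with LDB1 and with EBF factors, and many homeodomain proteins bind sites with the letters TAATTA. These letters, which read the same on both strands, were searched for in the 250 bases before each annotated start. They were present in 25.3% of the 198 windows of these receptors, in 16.2% of the 749 windows of other *Olfr* genes and in 4.84% of the 32851 windows of all genes. All of these letters are A or T, and the base composition of the windows was not taken into account. The share was 24.3% below *Olfr1201* and 26.5% from *Olfr1201* upward. Where the annotated start is an ATG the true transcription start may lie elsewhere. Among the windows that begin elsewhere than at an ATG, the shares were 29.1% of 55 for these receptors and 14.5% of 207 for the other *Olfr* genes.

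The window of *Olfr1205*, the receptor with the largest lower limit of its rise, and that of *Olfr1290*, the DEG with the largest rise, are shown with TAATTA in capitals. A match is a description of these letters and no evidence of binding. The table gives *Olfr1290* a further start, whose window held no match. The first window is chr2:88829507-88829756 (plus strand) and the second chr2:111493816-111494065 (minus strand), both GRCm38.p6.
Olfr1205: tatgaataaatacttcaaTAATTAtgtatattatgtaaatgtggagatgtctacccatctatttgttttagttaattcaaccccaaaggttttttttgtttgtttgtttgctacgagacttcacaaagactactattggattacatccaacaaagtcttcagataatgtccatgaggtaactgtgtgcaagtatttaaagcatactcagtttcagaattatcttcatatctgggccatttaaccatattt
Olfr1290: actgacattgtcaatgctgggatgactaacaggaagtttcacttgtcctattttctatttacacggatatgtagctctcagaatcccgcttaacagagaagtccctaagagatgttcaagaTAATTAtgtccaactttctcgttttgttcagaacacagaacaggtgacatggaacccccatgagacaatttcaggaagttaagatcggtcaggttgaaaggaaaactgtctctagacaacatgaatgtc

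Genes that act on receptor choice and on receptor transport to the membrane did not pass the test. Of 21 such genes, 16 were higher and 5 lower in aged mice (median log2 fold change 0.05). Limma called 0 of them, where 1.65% of all genes were called higher and 2.33% lower, so that 0 calls in so short a list say little. The largest change of the 21 was that of *Ebf3*, at 5994 and 5748 in young adult mice and at 7164 and 7584 in aged mice (0.33, FDR = 0.306). *Lhx2* was at 21002 and 21583 in young adult mice and at 22695 and 22450 in aged mice (0.08, FDR = 0.686). *Kdm1a*, the histone demethylase LSD1 that opens the chosen receptor, was at 8069 and 8335 and at 7814 and 7975 in aged mice (-0.05, FDR = 0.793). *Rtp1*, which carries receptors to the surface, was at 3741 and 3725 and at 4185 and 4062 in aged mice (0.14, FDR = 0.530).

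Markers of the receptor-bearing cell were present and leaned the same way as the receptors. *Omp*, which marks mature ORNs, was at 300826 and 286061 in young adult mice and at 317836 and 332591 in aged mice (log2 fold change 0.15, FDR = 0.549 by limma). These levels are normalised RNA signals of the tissue and not cell counts. By staining, the paper counted fewer OMP-positive mature ORNs and fewer GAP43-positive immature ORNs in the aged epithelium. All 18 mature ORN and transduction genes were above background on every array and had a positive log2 fold change (median 0.28), and 3 were called: *Kirrel2*, an adhesion protein of ORN axons (1.11), *Pde4a*, a cAMP phosphodiesterase (0.45), and *Stoml3*, a stomatin-like protein of ORN cilia (0.43). Their summed level ranged from 765353 to 780205 in young adult mice and from 892699 to 901394 in aged mice. The fibroblast markers moved the other way, with 6 of 6 lower, 4 called lower, and a summed level of 223497 to 248179 in young adult mice and 116395 to 124423 in aged mice. Of the 12 immature ORN markers 9 were lower and 1 was called (*Dpysl3*, -0.40), with a summed level of 82554 to 84094 in young adult mice and 67998 to 68831 in aged mice. The basal and progenitor markers were also lower in 8 of 10, with 4 called lower (median -0.40) and a summed level of 37282 to 37303 in young adult mice and 29975 to 30602 in aged mice. Of the 5 Bowman gland and secretory genes 4 were lower, with 2 called lower and 1 called higher, and a summed level of 607952 to 608343 in young adult mice and 464854 to 476711 in aged mice. The 7 ciliated respiratory markers had 6 lower and the 8 sustentacular markers 3 lower, with 0 called lower in either list (limma) and 1 sustentacular gene called higher. None of these markers was at background, and the part of the cell make-up in the receptor differences was not tested.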

How the data were processed

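The authors pooled, labelled and hybridised the RNA to Agilent 1-colour arrays and deposited, per the file headers, spot and background intensity values from Feature Extraction 11.0.1.1, not normalised between arrays. The deposited series table repeated the processed intensity on all 62976 spots. From the median signal, normexp (offset 0) in limma 3.58.1 (R 4.3.3) removed background, since the sources used here name no background method. Control spots and 88 to 118 flagged spots per array were left out, spots of a probe averaged, log2 values quantile normalised and probes of a gene averaged. Accessions named 32994 of 56605 probes (58.3%) through RefSeq (GRCm38.p6). Its gene table also gave the chromosome of the receptors and their order along it. Probes were not matched to genes by coordinates, because the array design has another build. Ages were compared with lmFit and eBayes on 4 arrays (45604 genes; 12 with flagged spots were not tested), checked beforehand on simulated data. The number of arrays limits the precision. A sample description naming silica and lung matches no other source and was not used.

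The receptors, blocks, marker lists and thresholds were chosen with earlier results of these data known, and so was the split at *Olfr1201*. Named genes are the 10 largest rises and falls among DEGs without overlap between ages, the 3 largest called changes under a level of 100 in each direction, the 5 brightest receptors, the range edges, probe pairs of opposite sign with one at least 1 in size, and the 5 largest lower limits. Other names were added after values were seen.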

Additional observations from a re-analysis of the deposited data

How the results depend on the processing

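All 33 receptors called higher kept a positive log2 fold change under each of the 16 alternatives in which they were tested, except *Olfr1097*, which stood at -0.066 with only its most intense probe or with dim probes left out. The number called higher was 54 with a normexp offset of 50 (22.9%, where 4.62% of all genes were). It was 51 with the processed signal and quantile normalization (21.6%, where 4.45% were) and 52 with an intensity trend (22%, where 7.92% were). The number called lower was 2 with the processed signal scaled to the 75th percentile (where 1.89% of all genes were). It was 7 of 236 with its quantile normalization (where 5.14% of all genes were) and 1 with 75th percentile scaling (where 1.81% were). It was 11 with dim probes left out (of 108 receptors tested, where 12.6% of all genes were). With the replicate block, 0 receptors and 0 of all genes were called in either direction. Among the DEGs, 0 receptors were upregulated and 0 downregulated with the replicate block, and 0 downregulated with the processed signal scaled to the 75th percentile. With any 1 array left out, limma called 0 receptors in either direction and counted 0 as DEGs, the smallest FDR of any gene being 0.408 to 0.677, against 0.433 with the block. At an unadjusted P below 0.05, 48 to 58 receptors were then higher and 7 to 13 lower. Same-numbered arrays did not deviate together (correlation -0.08 over all genes), so the numbers were not treated as pairs. Leaving out dim probes called 39.8% of the receptors higher, where 11.7% of all genes were.

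The median log2 fold change of the receptors was 0.10 with an offset of 50, 0.43 with the processed signal scaled to the 75th percentile (where all genes shifted by 0.07), 0.13 on the shared slide alone and 0.10 to 0.30 with 1 array left out. For the other *Olfr* genes it was 0.034 with an offset of 50, 0.044 without background correction, 0.19 with the processed signal scaled to the 75th percentile and 0.00072 to 0.12 with 1 array left out. From *Olfr1201* upward the median stayed between 0.25 and 0.60 over the 16 alternatives, and below *Olfr1201* between -0.04 and 0.19. Single block medians turned sign: *Olfr987* to *Olfr1040* to -0.043 on the shared slide alone, *Olfr1041* to *Olfr1100* to 0.18 with the processed signal scaled to the 75th percentile, to 0.031 with its quantile normalization, to 0.014 with an offset of 50, to 0.00022 with 75th percentile scaling and from -0.079 to 0.094 with 1 array left out, *Olfr1101* to *Olfr1150* to -0.047 on the shared slide alone and -0.035 without aged array 2, and *Olfr1151* to *Olfr1200* to -0.045 with dim probes left out, -0.020 on the shared slide alone and -0.014 without aged array 2. The causes were not tested. Signal over background limits the 65 receptors above it on no array.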
